A study of Saccharomyces cerevisiae with 21 samples.

Results

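Yeast cells that had lost their water were compared with the same culture before drying. The contrast used 6 of the 21 arrays in the series, the 3 titled Dry and the 3 titled Control, and members were all probe sets on the chip other than its control features. These came to 9275 probe sets, of which 6504 were annotated with 1 gene and stood for 5656 genes. The whole series followed Saccharomyces cerevisiae BY4743 through drying and rehydration with 3 arrays at each of 7 time points, 1 of them after 18 h of drying (titled 50% dry). BY4743 is a diploid of the S288C background that carries, as every group here did, homozygous deletions of HIS3, LEU2 and URA3 and a single working copy of LYS2 and of MET15. Before the experiment the cells grew at 30 °C in YPD (yeast extract, peptone and glucose) until A600, the optical density, was 0.8. The cells were then spun down and resuspended in YPD diluted 1:20 at 22 to 25 °C. Control was an aliquot of that suspension taken before drying. Dry was sampled after 42 h of drying in 9 cm dishes at the same temperature and a further 72 h at 20% relative humidity.

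No undried culture was kept for as long in diluted medium. Loss of water, time, temperature and loss of nutrients therefore cannot be told apart in this contrast. The labels do not say whether the 3 replicates came from separate cultures, so every p-value covers only the spread among these arrays, and that spread may be technical. In RNA from a whole culture, fewer cells with a transcript and less transcript per cell cannot be told apart.

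Dried yeast enters a state without metabolism from which part of the cells recover when wetted. Trehalose, small hydrophilic proteins (hydrophilins), chaperones and antioxidant enzymes are the protectants most often named for it. Yeast that runs out of glucose switches from fermentation to the burning of fat, acetate and ethanol, and stops making ribosomes.

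The dry cells differed from the undried ones across most of the transcriptome. With 1 probe set a gene, 4459 of 5656 genes were called (78.8%) at an adjusted p under 0.05 in limma, 2633 of them higher in Dry (46.6%) and 1826 lower (32.3%). On 4415 genes (78.1%) the change was called and the 3 Dry signals did not overlap the 3 Control signals. Background here means a signal of 29.6 or less, set from control features with no target in the sample. With signals under background raised to it, changes of at least 2-fold were called for 1765 genes upward and 1223 downward, at least 8-fold for 250 and 270, and at least 32-fold for 53 and 26. Among the called genes, 183 of the higher ones were at background on every Control array and above it on every Dry array, and 87 of the lower ones went the opposite way. The plot of change against signal level shows these genes, with a median change of 0.31 on the log2 scale. Over all 9275 probe sets, 6239 were called (67.3%), 3717 higher (40.1%) and 2522 lower (27.2%). Probe sets with no annotated gene were called in 1040 of 2443 cases (42.6%) and those with 1 gene in 4960 of 6504 (76.3%), a difference that was not tested.

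**Figure D1:**
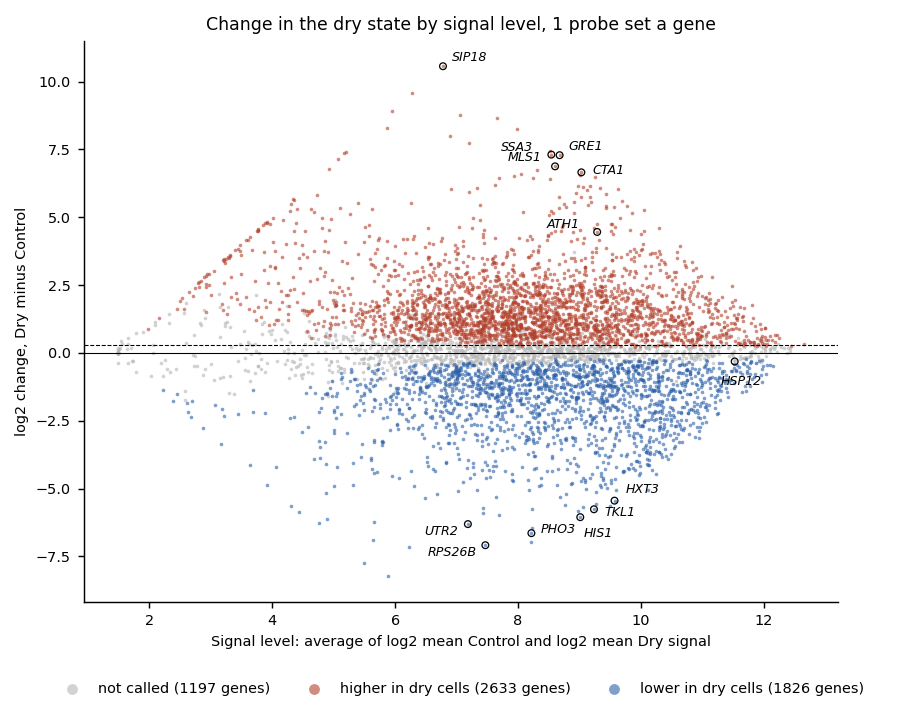
Each point is 1 of 5656 genes, with the average log2 signal of Control and Dry on the x axis and the log2 change from Control to Dry on the y axis; the dashed line is the median of all genes (0.31). Genes called higher (2633, red) reach 10.57 at SIP18, and genes called lower (1826, blue) include RPS26B at -7.09.

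Several properties of the arrays moved with the groups. Signals were scaled by the authors to nearly the same trimmed mean on each array (500.2 to 500.6), so a change is relative to the array's scaled signal, with RNA amounts per cell unknown. The median change of all probe sets was 0.24 as deposited, 0.04 after quantile normalization, -0.08 after median centring and -0.07 after scaling to the spiked-in bacterial transcripts. The split of calls into 3717 higher and 2522 lower became 2957 and 3194 after median centring and 2721 and 2869 after spike-in scaling. All Control arrays were scanned on 1 day and all Dry arrays on another. With scan day as a block, a fit that links the days only through 1 array of the 18 h group, 4599 probe sets were called, 2736 higher and 1863 lower. The log2 ratio of the 3' to the 5' control probe set of ACT1, a sign of RNA integrity, was -0.31 ± 0.14 (SD, n = 3) in Control and 1.05 ± 0.10 in Dry. For SRB4 the ratio was 0.82 ± 0.32 and 1.72 ± 0.17, and for SPT15 it was 1.66 ± 0.03 and 1.27 ± 0.05 (exact permutation p = 0.1 each, two-sided, the smallest that 3 against 3 arrays allow). The part of these properties in the results was not tested. The ACT1 probe set among the genes rose by 0.69 while all 3 ACT1 control probe sets fell, by 2.05 (5'), 2.01 (middle) and 0.69 (3'), so no direction is given for actin. Correlation of log2 signals over probe sets was 0.980 to 0.985 within a group and 0.768 to 0.776 between the groups. The third Dry array was the dimmest of its group for 227 of 293 genes with a mean Dry signal over 3000.

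The genes with the largest rises included hydrophilins and enzymes of non-sugar carbon use. SIP18, a hydrophilin, read 0.9 on all 3 Control arrays and 4919, 4486 and 3485 in Dry, at least 143.5-fold higher (adjusted p = 1.69e-16). Its Control signals lay far under background. GRE1, a related hydrophilin, went from 32.0, 26.2 and 38.5 to 6065, 6215 and 3280, a log2 change of 7.29 ± 0.22 (SE, adjusted p = 4.59e-14). MLS1, malate synthase of the glyoxylate cycle, read 47.6, 33.0 and 27.2 in Control and 4078, 5297 and 3223 in Dry (6.88 ± 0.19). CTA1, the peroxisomal catalase, read 55.4, 44.4 and 56.5 against 5426, 5547 and 4750 (6.66 ± 0.10). In all of these the margin between the groups was wide, though no overlap was a condition of their choice.

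SPG1 and SPG4, genes named for survival in stationary phase, rose by 6.55 ± 0.23 and 6.50 ± 0.13. INO1, which makes inositol phosphate for phospholipids, rose by 6.44 ± 0.12, and SPS100, a spore wall gene, by 6.41 ± 0.18. POX1, the first enzyme of fatty acid oxidation, rose by 6.26 ± 0.10 on 1 probe set and by 5.22 ± 0.12 on another. IDP2, the cytosolic isocitrate dehydrogenase, rose by 6.15 ± 0.19, ADY2, an acetate transporter, by 6.14 ± 0.26, and PAI3, the inhibitor of vacuolar proteinase A, by 6.13 ± 0.19. Among genes at background on all Control arrays, the highest lower bound was that of CRC1, the mitochondrial carnitine carrier (at least 147.3-fold), above SIP18. They were followed by SHH3 and SDH9, paralogs of succinate dehydrogenase subunits (at least 130.6-fold and 89.5-fold), SUE1, a mitochondrial gene for turnover of cytochrome c (at least 87.2-fold), and CIT3, the methylcitrate synthase (at least 79.1-fold). The plot of single-array signals shows these genes, for which no overlap between the groups was a condition of the choice.

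**Figure D2:**
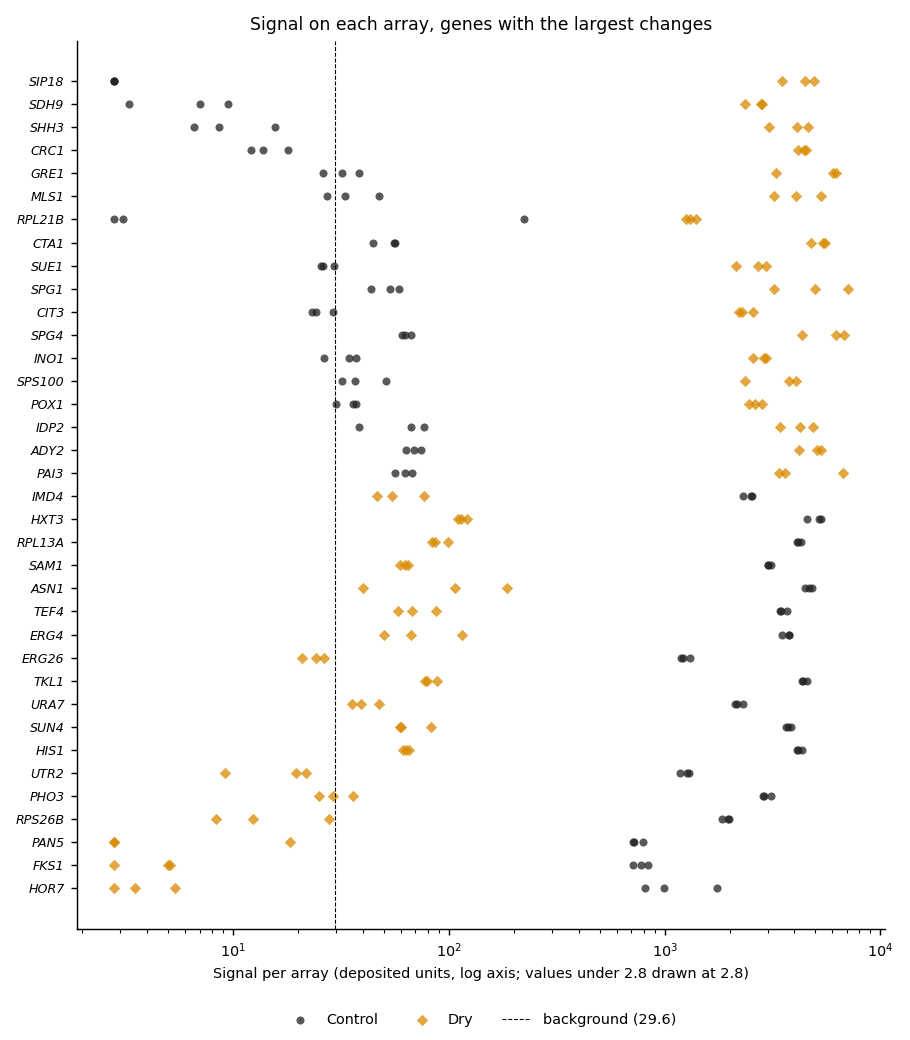
Signal on each of the 3 Control (circles) and 3 Dry (diamonds) arrays, on a log axis, for the genes with the largest rises and falls; the dashed line is background (29.6). The groups are apart for every gene because genes were chosen for no overlap, and RPL21B has 1 Control array at 222.1 and the others at 1.9 and 3.1.

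Among the 8 hydrophilins and desiccation proteins, 5 rose and 2 fell, and their median change was 1.21. ROQ1, a small hydrophilic stress protein that acts on ubiquitination, went from 176.2, 151.0 and 158.7 to 2264, 1965 and 2233 (3.73 ± 0.10, adjusted p = 1.61e-14). SPI1, a cell wall protein of stressed cells, rose by 1.81 ± 0.14. STF2, an antioxidant hydrophilin, rose by 0.61 ± 0.12 (adjusted p = 0.000257), a call lost after median centring and after spike-in scaling. HSP12, the abundant membrane-protecting hydrophilin, read 3429, 3078 and 3219 before drying and 2999, 3168 and 1867 in Dry, and was not called (-0.31 ± 0.23, adjusted p = 0.256). Its groups overlapped and its signal was already high in Control. DDR48 fell by 1.61 ± 0.20 and NOP6 by 0.98 ± 0.17.

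Of 7 trehalose genes, 5 rose and 1 fell, with a median of 0.37 near that of all genes, and 3 rose after median centring, after spike-in scaling or with scan day as a block. TPS1, the synthase, rose by 0.37 ± 0.09, a call lost under each of those 3 settings, and TPS2, the phosphatase, was not called (-0.24 ± 0.18, adjusted p = 0.244). TPS3, a regulatory subunit, fell by 2.12 ± 0.11. ATH1, the acid trehalase, read 140.5, 129.6 and 129.3 in Control and 2814, 3097 and 2883 in Dry, a rise of 4.46 ± 0.08 (adjusted p = 1.65e-16). The neutral trehalases NTH1 and NTH2 rose by 0.94 ± 0.13 and 1.21 ± 0.09. Of 10 glycogen genes, 4 rose and 5 fell (46.6% and 32.3% over all genes). GPH1, glycogen phosphorylase, fell by 2.41 ± 0.16 and GSY2, the main synthase, by 0.94 ± 0.16, while the primers GLG1 and GLG2 rose by 1.01 ± 0.09 and 1.89 ± 0.13.

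Heat shock proteins moved in both directions. Of 6 small heat shock proteins and disaggregases, 4 rose and 1 fell (median 0.70). HSP26, a small heat shock protein that holds unfolded proteins, rose from 280.8, 248.7 and 297.7 to 3970, 3873 and 3509 (3.78 ± 0.09, adjusted p = 5.45e-15). HSP78 and HSP104, the mitochondrial and cytosolic disaggregases, rose by 2.09 ± 0.11 and 0.93 ± 0.13, and HSP30, a membrane heat shock protein, fell by 0.38 ± 0.10, a call lost with scan day as a block. Of 21 members of the Hsp70 and Hsp90 group, 6 rose and 9 fell, with a median of -0.08 that became 0.09 with scan day as a block. SSA3, an inducible cytosolic Hsp70, rose from 29.8, 27.7 and 31.1 to 4858, 4228 and 5004 (7.31 ± 0.12), whereas SSA2, a constitutive form, fell from 3892, 3792 and 3776 to 702.7, 730.9 and 617.8 (-2.49 ± 0.18). The related SSA4 was not called (-0.085). SSA1 was not called either, at 0.0, a value that also arises when every signal is raised to the floor before log2. In this list 1 of the 21 members was at background on all 6 arrays. The 0.0 of SSA1 is therefore not read as an unchanged level. ZUO1 and SSZ1, which sit at the ribosome and fold new chains, fell by 3.14 ± 0.15 and 2.36 ± 0.10. All 8 subunits of the cytosolic chaperonin were lower in Dry, 7 of them called, from CCT7 (-1.97 ± 0.18) to CCT3 (-0.57 ± 0.10). CCT6 was not called (-0.23, adjusted p = 0.0914). In the endoplasmic reticulum, 11 of 18 folding genes fell, SIL1 by at least 12.4-fold, and 3 rose, among them HRD1, a ubiquitin ligase for misfolded proteins (2.06 ± 0.13).

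Of 26 genes of the general stress response, 23 rose and 1 fell, with a median of 2.47 beside 0.31 for all genes. NQM1, a transaldolase paralog, rose by 5.73 ± 0.12, RTN2, a reticulon, by 4.62 ± 0.13, and XBP1, a repressor of growth genes, by 2.95 ± 0.10. GRE3, an aldose reductase, fell by 1.07 ± 0.16. Of 29 antioxidant enzymes 15 rose and 10 fell, shares near those of all genes (46.6% and 32.3%), and 11 rose and 11 fell after median centring or spike-in scaling. GPX1, a glutathione peroxidase, rose by 4.37 ± 0.15, GTT2, a glutathione transferase, by 3.05 ± 0.09, PRX1, the mitochondrial peroxiredoxin, by 2.82 ± 0.10, and CTT1, the cytosolic catalase, by 1.31 ± 0.20. YHB1, the flavohemoglobin that removes nitric oxide, fell from 3175, 3033 and 3157 to 84.4, 103.1 and 104.5 (-5.01 ± 0.21). TRR1, thioredoxin reductase, and GSH2, glutathione synthetase, fell by 2.21 ± 0.11 and 2.72 ± 0.19.

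**Figure D3:**
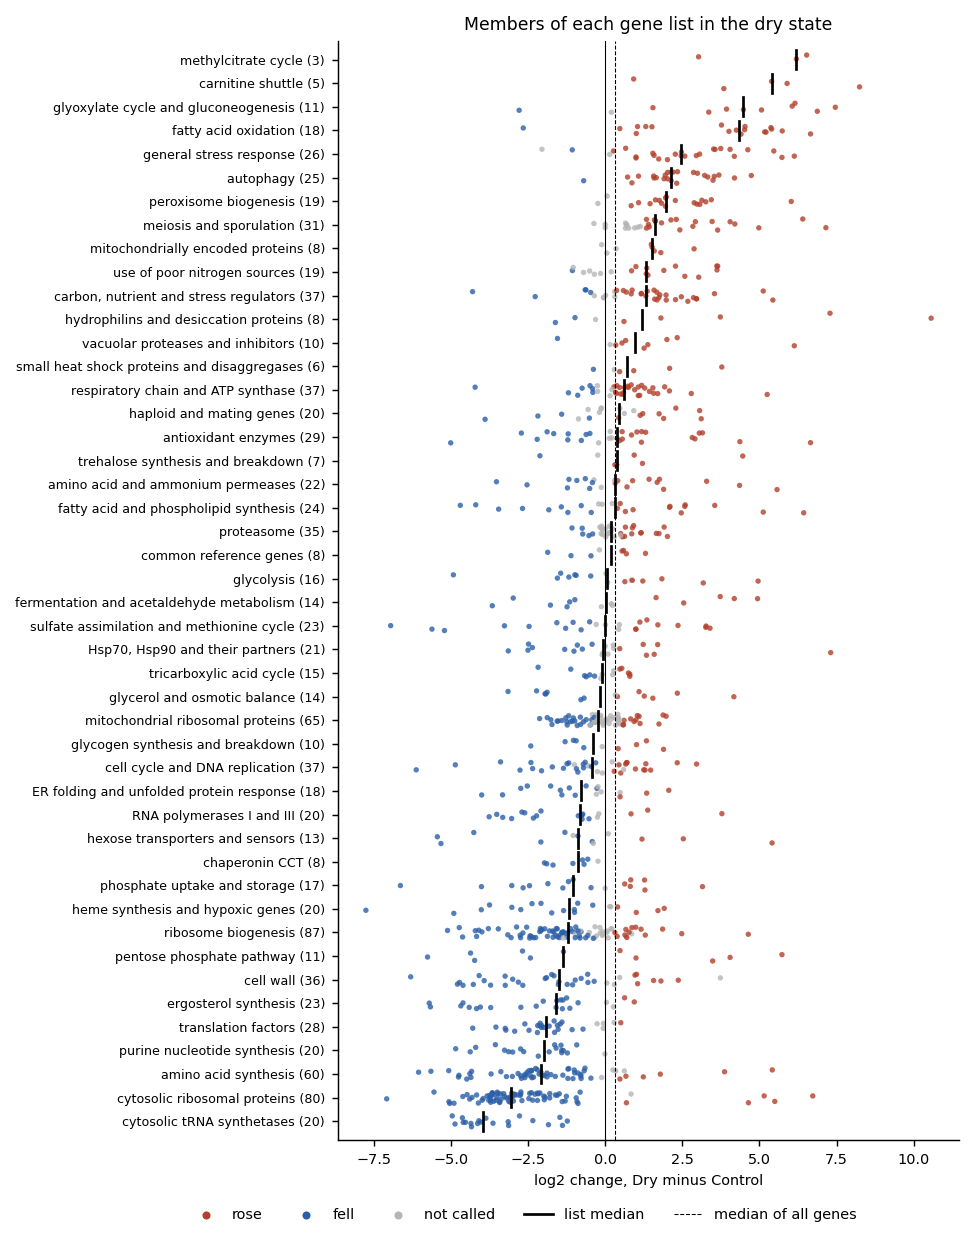
Each point is 1 measured gene of a list, with its log2 change from Control to Dry on the x axis and the number of measured genes after the list's name; the black bars are list medians and the dashed line is the median of all genes (0.31). List medians run from -3.96 for cytosolic tRNA synthetases to 6.20 for the methylcitrate cycle.

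Lists for growth without sugar had the highest medians: the methylcitrate cycle, the carnitine shuttle, the glyoxylate cycle with gluconeogenesis, and fatty acid oxidation. Of 18 genes of fatty acid oxidation, 17 rose and 1 fell, with a median of 4.33 (4.21 with genes at background set to their bound). PXA1, a subunit of the peroxisomal fatty acid importer, rose from 48.8, 57.0 and 61.2 to 2957, 2927 and 3002 (5.74 ± 0.11, adjusted p = 2.43e-16). The exception was ANT1, the peroxisomal ATP carrier, which fell by 2.66 ± 0.23. All 5 carnitine shuttle genes rose, CAT2 by 5.40 ± 0.14 and YAT2 by 5.90 ± 0.20. All 3 methylcitrate cycle genes for propionate breakdown rose, PDH1 by at least 56.4-fold and ICL2 by 3.03 ± 0.10. Of 19 genes for building peroxisomes, 17 rose and none fell (median 1.96), from PEX18, a receptor partner (at least 32.6-fold), and PEX3, a membrane assembly factor (3.44 ± 0.08), down to PEX25 (0.84).

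The glyoxylate cycle and gluconeogenesis, which turn acetate and ethanol into sugar, had 9 of 11 genes higher and 1 lower (median 4.48). PCK1, which starts gluconeogenesis, read 76.7, 80.2 and 75.7 in Control and 6650, 5383 and 3889 in Dry (6.06 ± 0.17). ICL1, isocitrate lyase, rose by 4.48 ± 0.10, FBP1, fructose bisphosphatase, by 5.07 ± 0.13, and SFC1, the succinate-fumarate carrier, by 7.46 ± 0.16. PYC2, a pyruvate carboxylase, fell by 2.79 ± 0.20. Their regulators rose too: SIP4 by 5.44 ± 0.17 and CAT8 by 3.54 ± 0.13, both activators of gluconeogenic genes. MIG2, a repressor active in glucose, fell by 4.30 ± 0.32. Over all 37 regulators of carbon, nutrient and stress responses, 26 rose and 5 fell (median 1.32).

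The tricarboxylic acid cycle itself had no common direction, with 5 of 15 genes higher and 6 lower (2 higher and 7 lower after spike-in scaling), and its median of -0.10 became 0.03 after quantile normalization. Over all genes 46.6% were higher and 32.3% lower. IDH2, a subunit of mitochondrial isocitrate dehydrogenase, fell by 2.18 ± 0.10, and KGD1 and SDH2, of the ketoglutarate and succinate dehydrogenases, rose by 0.80 ± 0.15 and 0.80 ± 0.12. In the nuclear respiratory chain and ATP synthase, 26 of 37 genes rose and 7 fell (median 0.59), but 16 and 15 rose after median centring and spike-in scaling. NDE2, an external NADH dehydrogenase, rose from 178.5, 174.6 and 160.1 to 7544, 6712 and 5457 (5.25 ± 0.13), and INH1, the inhibitor of the ATP synthase, by 2.79 ± 0.13. CYC1, the main cytochrome c gene, fell from 1115, 1195 and 1126 to 68.6, 53.4 and 63.5 (-4.22 ± 0.18). Of 8 mitochondrially encoded genes, 5 rose, 2 with scan day as a block, and several were dim. COX1, a cytochrome oxidase subunit, and OLI1, an ATP synthase subunit, were not called (-0.12 ± 0.13 and 0.05 ± 0.25).

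Transcripts for sugar uptake and use changed in both directions. HXT3, a low-affinity glucose transporter, fell from 4584, 5287 and 5173 to 110.1, 113.4 and 121.9 (-5.44 ± 0.15), and the changes of HXT4 and HXT1 were -5.33 ± 0.23 and -4.26 ± 0.12. HXT5, the transporter of slow-growing cells, rose from 111.9, 101.6 and 103.5 to 4907, 4154 and 4449 (5.41 ± 0.14), and the sensors SNF3 and RGT2 rose by 2.53 ± 0.19 and 1.19 ± 0.08. Hexose transporters and sensors came to 3 higher and 7 lower of 13, beside 46.6% and 32.3% of all genes.

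In glycolysis 6 of 16 genes rose and 7 fell, beside 46.6% and 32.3% of all genes. The median of 0.05 turned to -0.27 after median centring and -0.26 after spike-in scaling. HXK2, the main hexokinase in glucose, fell (-4.92 ± 0.15), as did TDH1, a glyceraldehyde phosphate dehydrogenase (-1.44 ± 0.10), and PFK1, of phosphofructokinase (-0.98 ± 0.13). Some of the rises rest on Control arrays that were far apart. PGK1, phosphoglycerate kinase, read 9.9, 464.6 and 185.6 in Control and 3381, 2858 and 2650 in Dry, and ENO2, an enolase, read 157.0, 1293 and 409.0 against 1220, 1678 and 1857. In all, 8 genes called higher had a log2 SD over 1 and a range over 100 among Control arrays (PGK1, ENO2, RPL21A, RPL21B, RPP0, RPS26A, CWP2 and AIM18, chosen after their values were seen). With probe sets of log2 SD over 1 left out, 4 of 13 glycolysis genes rose and 7 fell, and the median was -0.47.

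The pentose phosphate pathway fell in its main isozymes. TKL1, transketolase, went from 4586, 4334 and 4379 to 88.4, 77.9 and 79.3 (-5.76 ± 0.13, adjusted p = 1.85e-15), and GND1, phosphogluconate dehydrogenase, from 3902, 4325 and 3933 to 193.6, 245.7 and 209.3 (-4.23 ± 0.13). Of the 11 genes, 5 rose (3 with scan day as a block) and 6 fell. For glycerol, the osmolyte that yeast makes in high salt, 6 of 14 genes rose and 7 fell (46.6% and 32.3% over all genes). GPD2 and GPP2 of its synthesis fell by 3.15 ± 0.15 and 1.93 ± 0.15, and HOG1, the osmotic stress kinase, by 1.95 ± 0.09. GUT1 and GUT2 of its breakdown rose by 2.34 ± 0.11 and 1.55 ± 0.14, and STL1, its importer, by at least 7.54-fold. Among genes of fermentation and acetaldehyde metabolism, 5 of 14 rose and 6 fell (46.6% and 32.3% over all genes). Their median of 0.04 was -0.28 after median centring, -0.27 after spike-in scaling and -0.02 after quantile normalization.

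Among genes for nitrogen uptake, some rose and others fell. PUT4, the proline permease, went from 88.7, 72.8 and 92.2 to 4241, 4463 and 3380 (5.57 ± 0.15), GAP1, the general permease, rose by 3.29 ± 0.07, and MEP2, an ammonium permease, by 4.36 ± 0.11. HIP1, the histidine permease, fell by 3.53 ± 0.12. Over 22 permeases 11 rose and 8 fell (5 fell with scan day as a block), shares near those of all genes (46.6% and 32.3%). Their median of 0.31, also that of all genes, was -0.01 after median centring. Of 19 genes for poor nitrogen sources, 12 rose and 1 fell, among them PUT1, proline oxidase (3.03 ± 0.12), and GDH2, which releases ammonium from glutamate (3.62 ± 0.18). CAR1, arginase, fell by 1.06 ± 0.15. In autophagy 24 of 25 genes rose and 1 fell (median 2.14). ATG11, a scaffold for selective cargo, rose from 60.2, 70.4 and 79.3 to 1397, 1313 and 1119 (4.19 ± 0.12), and ATG3 and ATG34 by 2.99 ± 0.10 and 3.54 ± 0.09. ATG18 fell by 0.70 ± 0.13. Vacuolar proteases and inhibitors had 8 of 10 genes higher and 1 lower, but 5 higher after median centring or spike-in scaling. CPS1, a carboxypeptidase, rose by 2.33 ± 0.23 and APE1, an aminopeptidase, fell by 1.55 ± 0.13. Of 35 proteasome genes 13 rose and 5 fell (10 and 13 after median centring), with a median of 0.18 that was -0.14 after median centring and -0.13 after spike-in scaling. RPN4, the activator of proteasome genes, rose by 1.91 ± 0.16 and BLM10, an alternative cap, by 2.02 ± 0.09.

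Among genes above background in both group means, the largest fall was that of PHO3, an acid phosphatase, from 3123, 2851 and 2893 to 35.9, 29.0 and 24.9 (-6.64 ± 0.33, adjusted p = 2.02e-11). The Dry signals of 29.0 and 24.9 lay below background, so the size of this fall is uncertain. Genes with a Dry mean below background but an array above it, such as CYS3 (-6.96), are in neither this ranking nor the next. HIS1, which opens the histidine pathway, went down from 4161, 4102 and 4345 to 63.1, 65.6 and 61.4 (-6.05 ± 0.15). SUN4, a cell wall glucanase of the SUN family, fell from 3725, 3856 and 3673 to 60.0, 83.0 and 59.4 (-5.81 ± 0.16). In each the highest Dry array was far below the lowest Control array, where the rule of choice already required no overlap. The log2 change was -5.76 ± 0.21 for URA7, CTP synthase, -5.67 ± 0.25 for ERG4, the last enzyme of ergosterol synthesis, and -5.66 ± 0.24 for TEF4, an elongation factor subunit. It was -5.65 ± 0.37 for ASN1, asparagine synthetase, -5.62 ± 0.18 for SAM1, which makes S-adenosylmethionine, and -5.41 ± 0.25 for IMD4, an IMP dehydrogenase.

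Among genes at background on all Dry arrays, the largest lower bounds were for RPS26B, a ribosomal protein (at least 65.1-fold lower), UTR2, a chitin crosslinking enzyme (at least 42.2-fold), and ERG26, of ergosterol synthesis (at least 41.8-fold). HOR7, a small protein of unknown function, followed (at least 37.8-fold, a call lost with scan day as a block). FKS1, the glucan synthase subunit, fell at least 26.2-fold on 1 probe set, and its 7 other probe sets fell too. PAN5, of pantothenate synthesis, fell at least 25.1-fold.

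Most genes of protein synthesis fell. All 20 cytosolic tRNA synthetases fell, with a median of -3.96, from DED81, for asparagine (-4.96 ± 0.15), to ALA1, for alanine (-1.23 ± 0.06). DED81 read 3852, 3760 and 4032 in Control and 98.8, 144.5 and 135.6 in Dry (adjusted p = 3.99e-14). Of 133 cytosolic ribosomal protein genes, 80 had a probe set of their own, and 74 of these fell and 5 rose (3 with scan day as a block, median -3.05). RPL13A fell from 4109, 4300 and 4175 to 86.5, 83.2 and 99.1 (-5.55 ± 0.13), and RPL3 by 3.63 ± 0.11. Of the 5 that rose, RPL21B, RPS26A, RPP0 and RPL21A had at least 1 Control array at 1.9 or less, and RPS21A rose by 0.69 (adjusted p = 0.0205). RPL21B read 1.9, 3.1 and 222.1 in Control, RPS26A read 151.9, 0.0 and 151.4, and RPP0 read 0.0, 153.6 and 151.2. With probe sets of log2 SD over 1 left out, 74 of 75 genes fell and 1 rose. Near-identical ribosomal protein copies may share signal on this chip.

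Translation factors had 23 of 28 genes lower and 1 higher (median -1.90), with PRT1, of initiation factor 3, at -3.54 ± 0.15. Ribosome biogenesis had 54 of 87 lower and 13 higher (median -1.20), with 8 higher after median centring or quantile normalization and 7 after spike-in scaling. NOP58 and NOP1, core proteins of the RNA-modifying particles of the nucleolus, fell by 5.11 ± 0.14 and 4.62 ± 0.17, whereas DBP7, a helicase, rose by at least 7.47-fold and NOP16 by 1.86 ± 0.17. Of 20 genes of RNA polymerases I and III, 15 fell and 3 rose. RPA135, the second subunit of polymerase I, fell from 2464, 2549 and 2550 to 167.6, 194.4 and 196.2 (-3.76 ± 0.18), and RRN3, its initiation factor, rose from 66.8, 66.9 and 61.6 to 832.4, 921.0 and 939.0 (3.78 ± 0.09). Mitochondrial ribosomal proteins changed less, with 24 of 65 lower (35 after median centring) and 12 higher and a median of -0.22. Over all genes 32.3% were lower and 46.6% higher.

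Biosynthesis fell across several pathways. Amino acid synthesis had 50 of 60 genes lower and 6 higher (median -2.07), with THR1, homoserine kinase, at -4.35 ± 0.14, and with ARG3, of arginine synthesis, at 3.87 ± 0.12 and GDH3, a glutamate dehydrogenase, at 5.42 ± 0.24 in the other direction. Purine synthesis had 19 of 20 lower and none higher (median -1.99), GUA1, GMP synthase, from 3792, 3806 and 3787 to 187.8, 187.6 and 173.0 (-4.38 ± 0.16). Ergosterol synthesis had 19 of 23 lower and 2 higher (median -1.59). ERG6, the sterol methyltransferase, fell from 3794, 3729 and 3518 to 147.6, 138.8 and 143.5 (-4.68 ± 0.11, adjusted p = 2.57e-15), and IDI1 rose by 0.94 ± 0.15. Of 24 genes of fatty acid and phospholipid synthesis 12 rose and 9 fell, shares near those of all genes (46.6% and 32.3%). The median of these 24 genes, 0.31, was -0.01 after median centring. The elongases ELO3 and ELO1 fell by 4.20 ± 0.16 and 3.46 ± 0.12, and OPI1 and INO2, the repressor and an activator of INO1, rose by 3.55 ± 0.10 and by at least 7.55-fold.

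Of 23 genes of sulfate assimilation and the methionine cycle 9 were higher and 10 lower, beside 46.6% and 32.3% of all genes. CYS3, of cysteine synthesis, fell from 3057, 3200 and 3050 to 13.0, 43.8 and 27.4 (-6.96 ± 0.52) and SAH1, of the methyl cycle, by 5.21 ± 0.14, while MET4, the activator of the pathway, rose by 3.40 ± 0.22. The median of 0.01 was -0.31 after median centring. Among 17 phosphate genes 10 fell and 6 rose, PHO5, the main secreted phosphatase, among the first (-4.01 ± 0.11) and PHO4, the pathway's activator, among the second (3.15 ± 0.18). Heme and hypoxic genes had 14 of 20 lower and 4 higher, including TIR1, a mannoprotein (-3.75 ± 0.21), and ROX1, their repressor (1.91 ± 0.20). Cell wall genes had 26 of 36 lower and 6 higher (median -1.51). SCW10 and EXG1, both glucanases, fell by 4.72 ± 0.11 and 4.28 ± 0.15, and GSC2, the stress-induced glucan synthase, rose by 2.37 ± 0.12.

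Of 37 cell division genes 18 fell and 13 rose (median -0.44), with 7 higher after median centring, 6 after spike-in scaling and 8 after quantile normalization or with scan day as a block. CLN3, the cyclin that starts the cycle, fell from 1418, 1833 and 1410 to 149.7, 153.1 and 137.7 (-3.39 ± 0.11), and CLN2 fell at least 8.20-fold. SWI4, a G1 transcription factor, and WHI5, the G1 inhibitor, rose by 2.34 ± 0.16 and 1.32 ± 0.14. In the wider list of meiosis and sporulation 20 of 31 genes rose and none fell (median 1.60, or 0.39 with genes at background at their bound), and in that of haploid and mating genes 8 of 20 rose and 4 fell (2 fell with scan day as a block, median 0.46, or 0.03). Over all genes 46.6% rose and 32.3% fell. Of 15 markers of meiotic cells 9 rose and none fell. Their summed signal ran from 388.9 to 473.8 on Control arrays and from 3785 to 5377 on Dry arrays, most of it from SPS100 (mean 39.8 in Control and 3405 in Dry). NDT80, the master regulator of meiotic divisions, was not called (25.5 against 41.6, adjusted p = 0.228), and SPS2, SPS4, DIT2, SMK1 and SSP1 stayed at background on every Dry array. Of 16 haploid or mating markers 6 rose and 4 fell, with summed signals of 1234 to 1322 in Control and 1513 to 1761 in Dry. The part of such cells in other results was not tested.

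For the deleted genes, URA3 read at most 1.4 on all 6 arrays. LEU2 read 67.4, 77.3 and 63.8 against 36.1, 38.2 and 17.7. HIS3 read 912.3, 944.3 and 997.6 in Control and fell by 3.12 ± 0.10. The HIS3 and LEU2 probe sets were thus above background in Control although both genes are deleted, and whether they match sequence left in the strain was not tested. Of 8 genes often taken as references 4 rose (1 after spike-in scaling, 2 after median centring) and 3 fell, with a median of 0.18 that was -0.14 after median centring and -0.13 after spike-in scaling: TUB2, tubulin, fell by 1.86 ± 0.16, TAF10 rose by 1.31 ± 0.14, and PDA1 was not called (-0.19 ± 0.10, adjusted p = 0.0963).

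Of 44 paralog pairs, 18 had 1 gene rising and the other falling, 9 had both falling and 6 both rising, and in 11 only 1 passed the test. The pairs were chosen with earlier results of these data known. Over all genes 46.6% rose and 32.3% fell, and whether paralogs differed more often than other pairs was not tested. Among the 18, RPS26A had a Control array at 0.0 and the rise of TKL2 was lost with scan day as a block. Among the 11, the change of 0.0 for SSA1 is not read as an unchanged level, as given above. The difference between the genes of a pair was not tested. TAL1, transaldolase, fell by 2.68 ± 0.14 and its paralog NQM1 rose by 5.73 ± 0.12. GND1 fell by 4.23 ± 0.13 while GND2 rose from 145.7, 131.7 and 117.0 to 1948, 2394 and 2186 (4.05 ± 0.11). ACS2, the acetyl-CoA synthetase of glucose-grown cells, fell by 3.66 ± 0.11 and ACS1, the form used on acetate, rose by 3.93 ± 0.22. GDH1 fell by 3.01 ± 0.17 against 5.42 ± 0.24 for GDH3, and IDP1 fell by 1.78 ± 0.16 against 6.15 ± 0.19 for IDP2.

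The mitochondrial NADH dehydrogenases NDE1 and NDE2 changed by -0.89 ± 0.09 and 5.25 ± 0.13. Of succinate dehydrogenase, SDH2 rose as given above, and SDH1 (0.28 ± 0.14, adjusted p = 0.0994), SDH3 (0.24 ± 0.13, adjusted p = 0.111) and SDH4 (-0.10 ± 0.10, adjusted p = 0.405) were not called, while their paralogs SDH9, SHH3 and SHH4 rose (SHH4 by 3.69 ± 0.25). MSN2 and MSN4, paired activators of the general stress response, went opposite ways, MSN2 up by 1.36 ± 0.14 and MSN4 from 1284, 1261 and 1266 down to 284.3, 248.2 and 258.4 (-2.27 ± 0.14). Both protein kinases PSK1 and PSK2 rose (1.84 ± 0.15 and 2.27 ± 0.13).

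**Figure D4:**
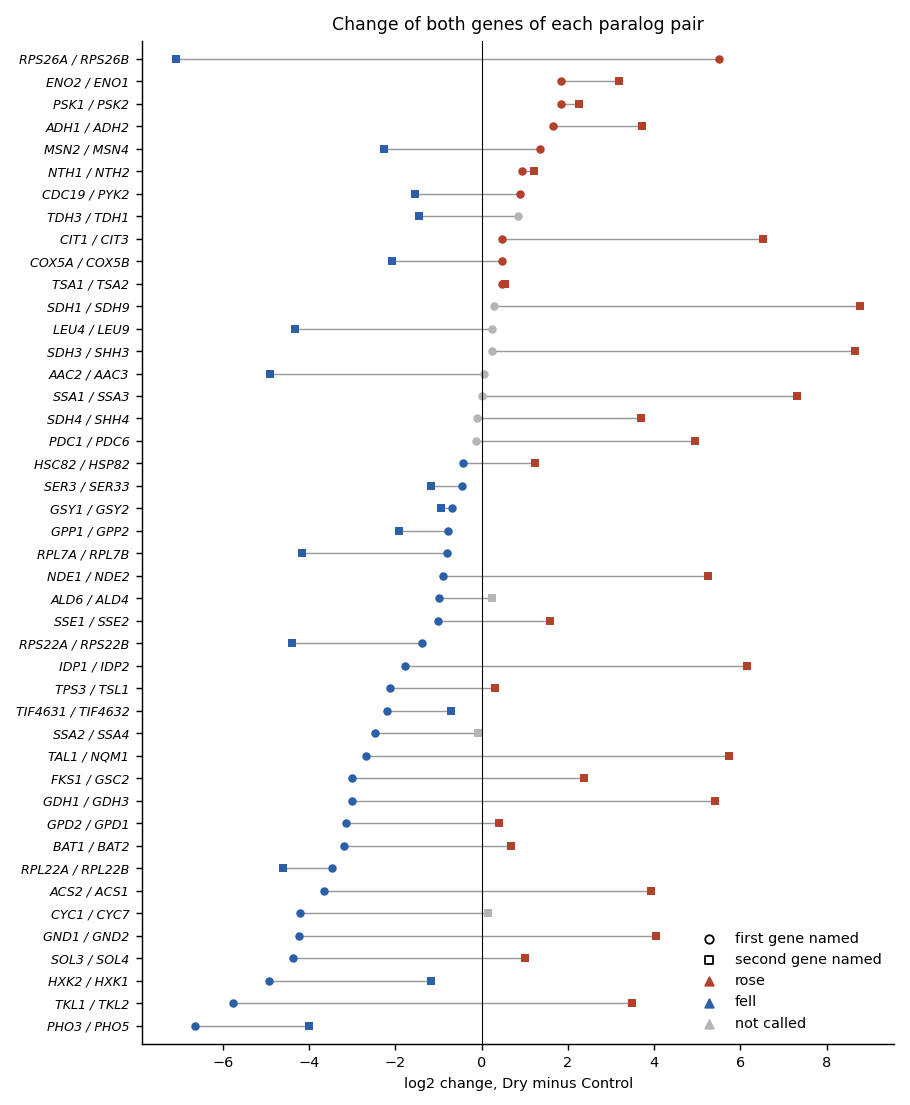
The log2 change from Control to Dry (x axis) of both genes of 44 paralog pairs, joined by a line; circles are the first gene named and squares the second, red rose, blue fell and grey was not called. In 18 pairs the points lie on opposite sides of 0 with both called, as for TKL1 (-5.76) and TKL2 (3.48).

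Most of these changes were already present after 18 h of drying. That comparison shares the Control arrays with this one, and the step from 18 h to Dry shares the Dry arrays, so the values stand side by side and only the step from 18 h to Dry tests a difference. At 18 h, 4200 of 5656 genes were called against Control (74.3%), 2360 higher (41.7%) and 1840 lower (32.5%), and from 18 h to Dry 2724 were called (48.2%), 1590 upward (28.1%) and 1134 downward (20.0%). Of the 2633 genes higher in Dry, 2093 were also called higher at 18 h, and of these 716 rose further, 1141 had no further call and 236 came partway back. For the 1826 lower genes, 1491 were called lower at 18 h, with 502 falling further, 766 without a further call and 223 coming partway back. A further 341 genes were called at 18 h and called back from 18 h to Dry, and were not called in Dry against Control.

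Protective and non-sugar carbon genes were among the early ones. SIP18 averaged 4322 at 18 h and 4297 in Dry (difference -0.02 ± 0.19, adjusted p = 0.962), and GRE1, SSA3, HSP26, ICL1, PCK1, CAT2 and PXA1 had risen by 3.82 to 7.47 at 18 h. FBP1 stood at 6.26 above Control at 18 h and was lower by 1.19 in Dry (adjusted p = 2.93e-06). Between 18 h and Dry 28.1% of all genes rose and 20.0% fell. Of 18 genes of fatty acid oxidation, 11 fell and none rose over that step, and of 15 tricarboxylic acid cycle genes 8 fell and none rose. Over the same step 12 of 25 autophagy genes rose and 1 fell, and 11 of those 12 were already higher at 18 h. In the proteasome 17 of 35 rose and 1 fell, 10 of the 17 having been lower at 18 h. Of 36 cell wall genes 20 fell, 13 of them already lower at 18 h, and of 23 ergosterol genes 13 fell, 11 of them already lower. Of 65 mitochondrial ribosomal proteins 22 rose, near the share of all genes (28.1%), and 16 of these were lower at 18 h.

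The named genes with large changes after 18 h included some that had begun to change before it. SNR14, the U4 spliceosomal RNA, averaged 80.8 in Control, 393.6 at 18 h and 2871 in Dry, rising by 2.87 between 18 h and Dry (adjusted p = 4.16e-12). PAR32, which restrains ammonium uptake, averaged 275.6, 405.5 and 3021 and rose by 2.91 late (adjusted p = 2.11e-09). BLI1, an endosomal gene, rose by 2.93 late (adjusted p = 3.36e-05), and SRL4, of unknown function, by 3.95 (adjusted p = 1.5e-08). ERG6 changed by -1.21 in the first 18 h and by -3.47 after it (adjusted p = 4.16e-12), and URA7 by -3.05 and then -2.71.

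Others reversed. In all, 84 genes were lower than Control at 18 h and higher in Dry, and 51 were higher at 18 h and lower in Dry. ADH2, the alcohol dehydrogenase that consumes ethanol, read 404.4, 403.1 and 427.4 in Control, 17.2, 225.1 and 34.4 at 18 h (mean 92.2, with the 3 arrays far apart) and 7299, 6825 and 3261 in Dry (a rise of 6.74 from 18 h, adjusted p = 3.97e-07). Its close copy ADH1 rose by 1.65 ± 0.12 and may share its signal. NOP16, of ribosome assembly, averaged 177.0, 96.3 and 647.0, and YSY6, of the secretory pathway, 233.4, 45.1 and 403.5, a rise over Control lost after median centring and spike-in scaling. In the opposite order, REE1, which is linked to enolase regulation, averaged 1367, 2883 and 308.2, and TAT1, an amino acid permease, 1045, 2920 and 447.2 (a late fall of 2.71, adjusted p = 7.51e-11). HAP4, the activator of respiratory genes, averaged 1694, 3485 and 1100, and its fall below Control (-0.63 ± 0.12) was lost with scan day as a block. NCA3, a relative of SUN4, averaged 171.8, 1260 and 119.8, with a late fall of 3.40 (adjusted p = 7.66e-09) and a small difference from Control (-0.53, adjusted p = 0.036) that was lost with scan day as a block and without single arrays. RGI1, a gene of respiratory growth, averaged 2832, 3594 and 525.0.

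**Figure D5:**
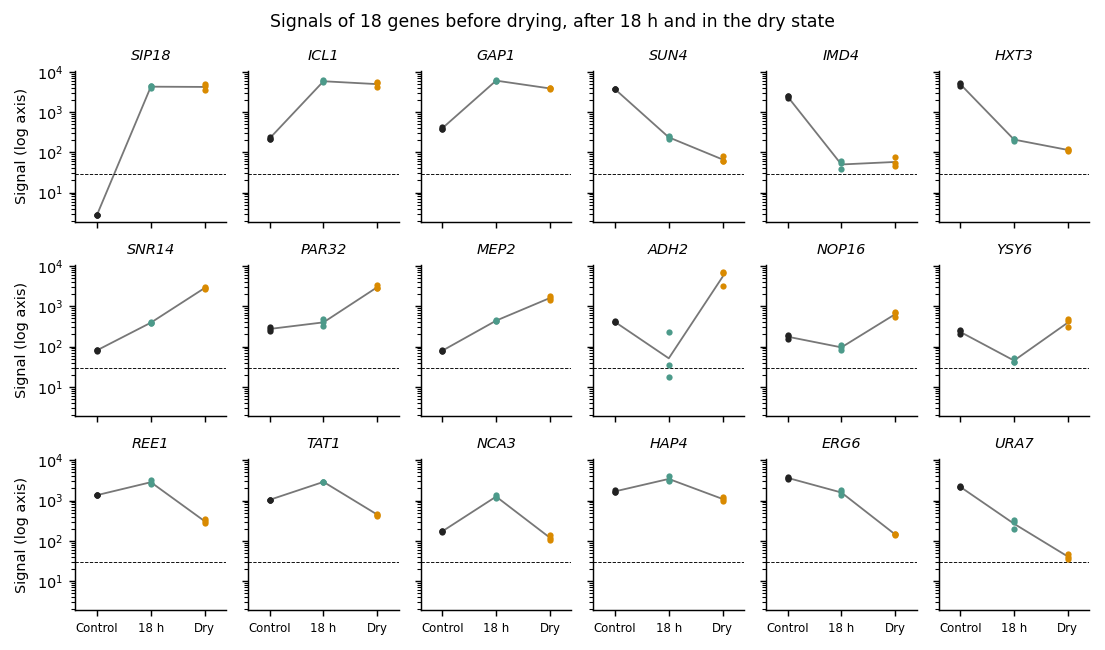
Signals of 18 genes on the 3 arrays of Control, 18 h of drying and Dry, on a log axis, with lines through the geometric means and background (29.6) dashed. The top row holds genes mostly changed by 18 h, the middle row genes that rose after it, such as ADH2 (mean 92.2 at 18 h and 5795 in Dry), and the bottom row genes that fell after it, such as ERG6.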

How the data were processed

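The data are microarray intensities, deposited by the authors as 1 linear signal for each probe set on each Affymetrix YG_S98 array. Per the labels, cRNA was hybridized, images were read with the GeneChip software, and signals went through a signed rank test and a mixed model in 2 steps. The terms of that model are not stated, nor is the step at which the signals were deposited. From the authors' signals, log2 was taken here after raising values under 2.8 (the 5th percentile of positive values, 4.99% of values) to 2.8. Without 60 control probe sets, limma 3.58.1 in R 4.3.3 (lmFit, eBayes) fitted 1 mean per time point to all 21 arrays. Calls needed a two-sided Benjamini-Hochberg adjusted p under 0.05 over 9275 probe sets. On the 6 arrays 78.6% to 81.0% of probe sets exceeded background, and precision is limited by the number of arrays. The fit was tested on simulated data.

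Gene names came from the platform's annotation, updated with RefSeq's gene table (R64): 6504 probe sets had 1 gene, 328 several and 2443 none. A gene is represented by its brightest probe set without a cross-hybridization suffix, or its brightest where all carry one. Background, 29.6, is the 95th percentile of 19 control probe sets without target. Where all 3 arrays of a group were at or below it, "at least N-fold" sets the mean log2 signal of the other group against 29.6.

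Genes named by rule had 1 standard name, no suffix, a call and no overlap between the groups: the 12 largest rises and falls above background, the 6 largest each way by lower bound, the 6 largest each way from 18 h to Dry, and from each list 4 members in its main direction and 3 in the other by adjusted p. Lists of 10 genes or fewer, the paralog pairs and 19 set genes were named whatever their values. AIM18, ALA1, CWP2, PEX25, RPL21A and RPS21A were named after their values were seen. The contrast, the 47 lists and the 44 pairs were chosen with earlier results of these data known. Alternatives were other scalings, floors, filters and pseudocounts, blocks for replicate number and scan day, and leaving out each array.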

Additional observations from a re-analysis of the deposited data

How the results depend on the processing

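Called probe sets, 6239 as deposited, numbered 4599 with scan day as a block and 5473 to 6571 under the other refits, and 4431 when at least a 2-fold change was also required. Without any single array the count was 5897 to 5980, with 3497 to 3593 higher and 2360 to 2407 lower. The same replicate numbers did not pair the samples (correlations of their deviations from the group means of -0.04, 0.02 and -0.06), and with the replicate number as a block 6222 probe sets were called, and 3590 in place of 3633 from 18 h to Dry. Of 353 named probe sets called, 312 kept their call under all of the 19 alternatives that tested them, and 321 under all of these but the scan day block. Filters left some of the 375 named probe sets untested. There were 363 with the dimmest 25% left out, 365 with log2 SD over 1 left out and 370 with only those above background. Medians of a few lists near 0 changed sign, mostly where the array was rescaled. After median centring these were glycolysis (-0.27), fermentation (-0.28), permeases (-0.006), sulfate (-0.31), fatty acid and phospholipid synthesis (-0.007), proteasome (-0.14) and reference genes (-0.14), and the genes PET9 (-0.28) and TSL1 (-0.006). After spike-in scaling these were PET9 (-0.27), glycolysis (-0.26), fermentation (-0.27), sulfate (-0.30), proteasome (-0.13) and reference genes (-0.13). Quantile normalization turned the tricarboxylic acid cycle (0.027) and fermentation (-0.017). With scan day as a block the Hsp70 and Hsp90 list (0.093), sulfate (-0.34) and VAR1 (-0.33) turned. Over the fits without 1 array the medians ran from -0.125 to 0.137 for glycolysis (below 0 without the first Dry array), from -0.075 to 0.073 for fermentation and from -0.040 to 0.059 for sulfate. URA3 was -0.87 with no floor, BAR1 was 0.00 with a floor at the 20th percentile, and glycolysis was -0.47 with probe sets of log2 SD over 1 left out, an alternative added after seeing the data. Causes were not tested.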

Other observations

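Non-coding RNAs, described here after their values were seen, also differed between the dry and the undried cells. All 4 spliceosomal RNAs on the chip rose. SNR14 (U4) read 78.5, 80.5 and 83.5 in Control and 2977, 2778 and 2858 in Dry, a log2 change of 5.15 ± 0.09 (adjusted p = 6.67e-17). SNR7-L (U5) rose from 37.6, 33.6 and 42.7 to 873.5, 731.4 and 753.0 (4.37), SNR6 (U6) by 3.55 and SNR19 (U1) by 1.31. RPR1, the RNA of ribonuclease P, rose from 578.6, 707.8 and 615.0 to 3684, 3681 and 3617 (2.54). Small nucleolar RNAs leaned the other way, with 33 of 57 lower and 9 higher against 32.3% lower and 46.6% higher over all genes. SNR44 fell from 1182, 1152 and 1150 to 174.1, 162.6 and 195.1 (-2.72) and SNR8 by 2.01, while SNR45 rose by 2.47. TLC1, the telomerase RNA, fell by 1.21. Of 91 transfer RNA genes 57 were higher and 19 lower, and near-identical copies may share signal. Of 4 ribosomal RNA genes 1 was called higher and 1 lower. RDN25-1, a 25S ribosomal RNA, was higher but uneven, with 396.3, 223.4 and 252.1 in Control against 416.3, 5401 and 3414 in Dry. RDN5-1 fell from 395.1, 328.0 and 279.7 to 61.2, 54.3 and 61.8 (-2.49). Whether the labelling of such RNAs or the RNA integrity given above had a part in these signals was not tested.

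Among protein-coding genes, the 444 known only by a systematic name had 205 higher (46.2%) and 110 lower (24.8%). The 5042 with a standard name had 2348 higher (46.6%) and 1659 lower (32.9%), and the difference was not tested. Of 226 genes with at least 2 called probe sets, 31 had probe sets called in opposite directions.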
